A study of Caenorhabditis elegans with 4 samples.

Results

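The genes described here are 125 Caenorhabditis elegans genes whose transcripts were less abundant in old than in young worms grown on Escherichia coli OP50, and more abundant in old than in young worms grown on Bacillus subtilis PY79. They were chosen by their reads. A gene had to have at least 20 reads in the pair of libraries of each diet, a day 13 level at most 0.5 times the day 4 level on OP50, and a day 13 level at least 2 times the day 4 level on PY79. Of 17096 genes in the table, 5405 had that many reads on both diets, and 125 of these, 2.31%, met both conditions. Because all 4 libraries chose the genes, every level and fold change below is a description, and no test was run.

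The study was about the transcription factor ELT-2 in aging, and it used the B. subtilis diet, under which worms live longer than on OP50, as a second long-lived condition to set beside elt-2 overexpression. Synchronized wild-type worms of strain N2 were grown from the first larval stage on OP50 or on PY79 and collected at day 4 or day 13 of adulthood, which gave 4 groups with 1 library each. Adults were washed over nylon mesh every other day. The use of FUDR, which blocks the growth of progeny, is stated for the aging experiments of the study in general and not for these worms. RNA came from whole worms, so fewer cells of a type and less RNA per cell cannot be told apart. Each library was made from poly(A) RNA and read near the 3′ end of transcripts, so that a read stands for a transcript and not for its length.

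The OP50 libraries held 28650595 reads at day 4 and 28552961 at day 13, and the PY79 libraries held 4838114 and 4469802. The diets therefore differed in depth 5.92-fold at day 4 and 6.39-fold at day 13, while the ages within a diet were close in depth. Levels are given as CPM, the reads of a gene per 1000000 reads of these totals, and fold changes were taken after adding 1 read to each count. The intervals after fold changes are exact 95% intervals for counting error only, since 1 library a group gives no measure of the spread between worm populations. The 82 ribosomal protein genes summed to 569741 and 650164 CPM at days 4 and 13 on OP50, and to 645864 and 643820 CPM on PY79. CPM are shares of all reads, so a higher sum of these genes leaves less for the others, and the part of this in the age ratios was not tested. On this scale the median age ratio of the 5405 genes was -0.24 (log2) on OP50 and 0.05 on PY79. With the TMM factors of edgeR, which rescale the libraries by a trimmed mean of gene ratios, all age ratios moved by 0.31 on OP50 and by -0.23 on PY79 (log2). Those shifts are smaller than the 2-fold limits of the rule, so all 125 genes had to stay lower with age on OP50 and higher on PY79. With TMM factors only 52 of them were past 2-fold on both diets.

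Adult C. elegans no longer molt, so cuticle collagen genes run at their adult level, and the germ line of hermaphrodites stops making fertilized eggs within the first days of adulthood. The intestine takes up the bacteria, and the GATA factor ELT-2 drives most of its genes. Bacteria are both the food and, in old worms, a source of infection, and lysozymes, saposin-like proteins and caenacin peptides are part of the response to them. DAF-16, the FOXO factor downstream of insulin-like signaling, controls a further set of genes that were named dct for that control.

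Lower levels with age on OP50 were common and higher levels on PY79 were less so. Of the 5405 genes, 22% were at least 2-fold lower at day 13 on OP50 and 6.72% at least 2-fold higher, whereas on PY79 11.6% were at least 2-fold higher and 6.85% at least 2-fold lower. With TMM factors the share of higher genes among those past 2-fold was 42.9% in place of 23.4% on OP50, and 44.4% in place of 63.0% on PY79. A further 229 genes (4.24%) were lower on both diets and 196 (3.63%) higher on both. The mirror image of the pattern, higher on OP50 and lower on PY79, was met by 6 genes (0.111%). One of the 6 was ilys-2, an invertebrate-type lysozyme gene, with 931 and 32479 reads at days 4 and 13 on OP50 and with 30441 and 5150 on PY79.

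**Figure D1:**
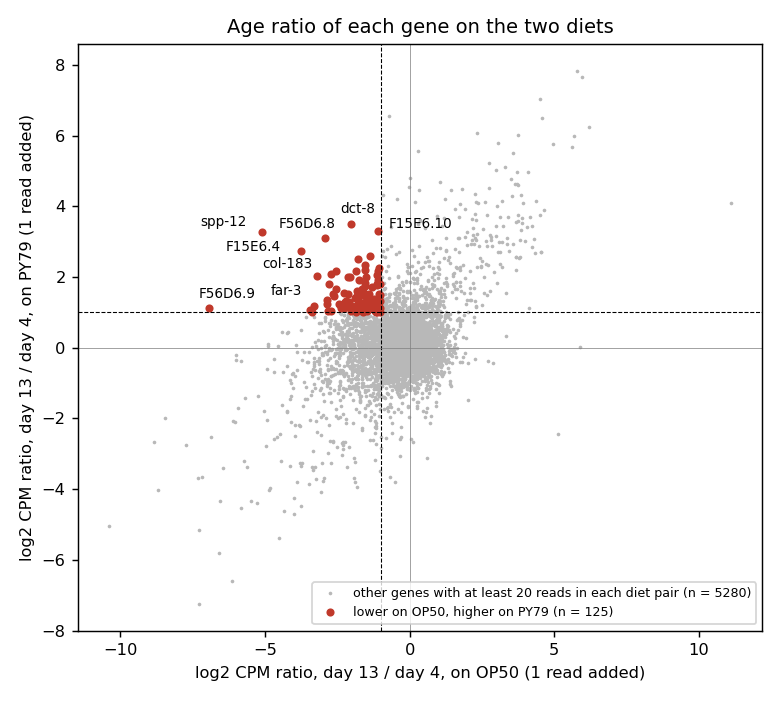
Ratio of day 13 to day 4 CPM (log2, 1 read added) of each of the 5405 genes with at least 20 reads in each diet pair, on OP50 (x axis) and on PY79 (y axis), 1 library per group. Red points are the 125 genes that were past 2-fold down on OP50 and up on PY79, and dashed lines mark 2-fold; F56D6.9 lies farthest to the left of the red points and dct-8 highest.

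Among the 125 genes the fold decrease on OP50 ran from 2.01 to 121.2 with a median of 3.11, and the fold increase on PY79 ran from 2.01 to 11.4 with a median of 2.44. The change on OP50 was thus the wider of the pair: 65 genes were past 3-fold on OP50 and 31 on PY79, and 16 genes were past 3-fold on both. Most lay near the limit on PY79, where 69 of the 125 were under 2.5-fold. The genes nearest to the limit, among those with at least 100 reads on each diet, were tag-153 (2.16-fold lower, 2.01-fold higher) and C10G8.8 (10.5-fold lower, 2.01-fold higher) on the inner side, and hcp-6 (1.997-fold lower, 2.55-fold higher) and nfyb-1 (2.80-fold lower, 1.997-fold higher) on the outer side. The members divided into 59 genes with at least 100 reads on each diet and 66 with fewer, whose intervals are wide.

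Together the 125 genes took 1.30% of all reads at day 4 on OP50 and 0.208% at day 13, against 0.558% and 2.89% on PY79. Most of these reads came from 5 genes that carry the clone names F56D6 and F15E6, all of them on chromosome IV. Those 5 held 0.962% and 0.106% of the reads on OP50 and 0.332% and 2.34% on PY79, and the other 120 genes held 0.342% and 0.101% on OP50 and 0.226% and 0.551% on PY79. Both sets went down on OP50 and up on PY79, as the rule requires of each gene.

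F56D6.9, F56D6.8 and dct-8 (F56D6.10) lie next to each other in the annotation in that order, with F56D6.8 on the strand opposite to the others. The role of F56D6.8 and F56D6.9 is not given here, and dct-8 carries the name of genes under the control of DAF-16. F56D6.8 stood at 2247 CPM at day 4 and 297 CPM at day 13 on OP50, and at 1351 and 11489 CPM on PY79, which is 7.58-fold lower (7.41–7.75) and 8.50-fold higher (8.29–8.73). dct-8 stood at 2749 and 676 CPM on OP50 and at 739.5 and 8397 CPM on PY79, 4.07-fold lower (4.00–4.13) and 11.4-fold higher (10.97–11.75). For both genes the old worms on PY79 were the highest of the 4 libraries and the old worms on OP50 the lowest. F56D6.9 differed from its neighbours in the size of the changes: it stood at 3952 and 32.6 CPM on OP50, 121.2-fold lower (113.7–129.6), and at 1053 and 2275 CPM on PY79, 2.16-fold higher (2.09–2.23). Its highest library was therefore the young worms on OP50, and with TMM factors it was 1.84-fold higher on PY79, under the limit. These were all 3 of the F56D6 genes that had enough reads. F56D6.13 missed the minimum on PY79, with 1 and 6 reads. On OP50 it had 15 and 169 reads, 10.7-fold higher with age, the opposite direction to its neighbours of the clone.

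Of 5 F15E6 genes with enough reads, F15E6.4 and F15E6.10, which are neighbours, met the rule. F15E6.4 stood at 646 and 47.8 CPM on OP50 and at 174 and 1162 CPM on PY79, 13.5-fold lower (12.8–14.3) and 6.68-fold higher (6.22–7.20). F15E6.10 had far fewer reads, 656 and 303 on OP50 and 29 and 271 on PY79, which is 2.15-fold lower (1.88–2.48) and 9.81-fold higher (6.88–15.4), and with TMM factors it was 1.74-fold lower on OP50. With the column totals, the other 3 moved in the same directions without reaching both limits. Among them dct-7 (F15E6.8) had 3465 and 2526 reads on OP50 and 93 and 1604 on PY79, 1.37-fold lower and 18.5-fold higher. Totals without the 3% most highly expressed genes moved OP50 age ratios by 0.47 (log2), more than this decrease of dct-7. The direction of dct-7 on OP50 therefore depends on the scaling. F15E6.3 had 12525 and 3380 reads on OP50 and 487 and 805 on PY79, 3.69-fold lower and 1.79-fold higher. set-9 had 99 and 53 on OP50 and 39 and 54 on PY79, and rests on few reads.

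Between the diets, 4 of the 5 chosen genes of these clones had values close to each other at day 4. PY79 was lower than OP50 by 3.75-fold for F56D6.9 (3.65–3.86), 3.72-fold for dct-8 (3.60–3.85), 3.71-fold for F15E6.4 (3.47–3.99) and 3.70-fold for F15E6.10 (2.63–5.75), and by 1.66-fold for F56D6.8 (1.62–1.71). The interval of F15E6.10 is wide, so how close it lies to the others is not resolved. At day 13 the 5 genes spread out, with PY79 higher than OP50 by 5.72-fold for F15E6.10, 12.42-fold for dct-8, 24.3-fold for F15E6.4, 38.7-fold for F56D6.8 and 69.8-fold for F56D6.9. These values share their libraries with the age ratios and are no separate observation.

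**Figure D2:**
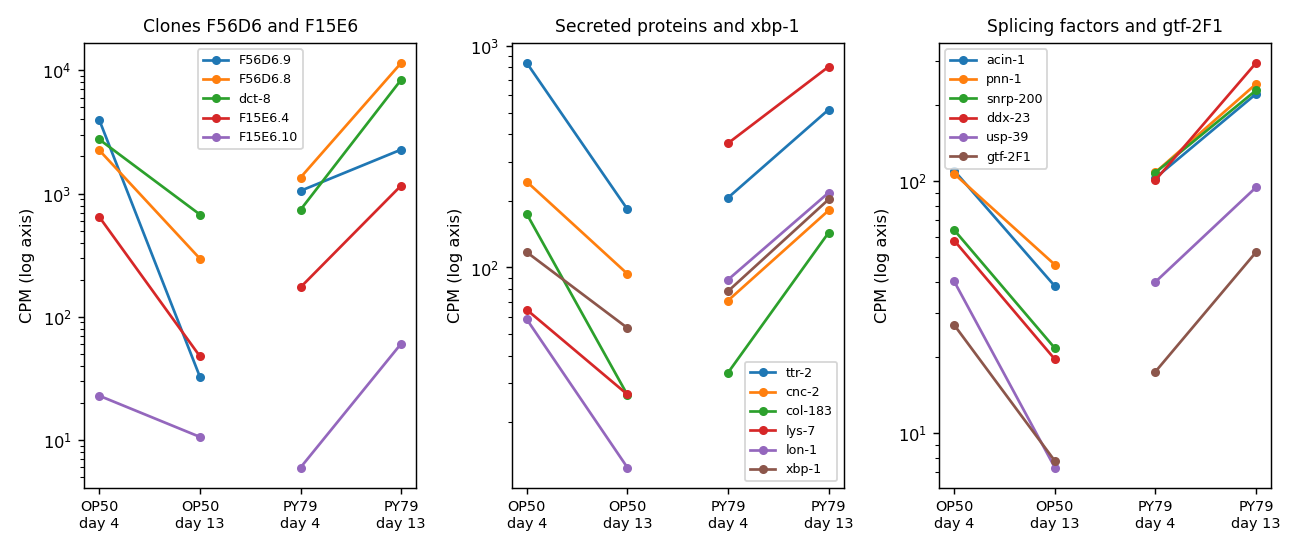
CPM on a log axis in each of the 4 libraries for 17 of the 125 genes: the 5 genes of clones F56D6 and F15E6, 5 genes of secreted proteins with xbp-1, and 5 splicing genes with gtf-2F1. Each point is 1 library and lines join the ages of a diet; every line goes down on OP50 and up on PY79, and lys-7 is the gene of the middle panel with the higher level on PY79 by the widest margin at day 4.

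Among genes of secreted proteins, ttr-2, which encodes a transthyretin-related secreted protein, had 24031 and 5234 reads on OP50 and 999 and 2307 on PY79, 4.57-fold lower (4.44–4.71) and 2.498-fold higher (2.32–2.69). A second transcript of ttr-2 was counted at 23803 and 4377 reads on OP50 but at 64 and 204 on PY79, so the ratio between the transcripts was not the same on the diets. cnc-2, a caenacin antimicrobial peptide gene, had 6990 and 2674 reads on OP50 and 343 and 809 on PY79, 2.61-fold lower (2.49–2.72) and 2.55-fold higher (2.25–2.91). In both genes the young worms on OP50 had the highest level of the 4 libraries.

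lys-7, a lysozyme gene of the intestinal response to bacteria, had the reverse order of diets. It stood at 64.5 and 26.7 CPM on OP50 and at 364 and 806 CPM on PY79, 2.41-fold lower with age on OP50 (2.22–2.63) and 2.22-fold higher on PY79 (2.09–2.35). With TMM factors it was under 2-fold on both diets, 1.94-fold lower on OP50 and 1.89-fold higher on PY79. PY79 was above OP50 at both ages, by 5.64-fold at day 4 and 30.1-fold at day 13. spp-12, a saposin-like gene, had 103 and 2 reads on OP50 and 4 and 44 on PY79, which gives 34.5-fold lower (13.9–429) and 9.74-fold higher (4.33–45.6), and rests on few reads. far-3, of the fatty acid and retinol binding proteins that nematodes secrete, had 199 and 19 reads on OP50 and 133 and 280 on PY79, 9.97-fold lower (6.51–17.7) and 2.27-fold higher (1.85–2.82). Like lys-7 it was higher on PY79 at both ages, and with TMM factors its increase on PY79 was 1.94-fold.

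The families of these genes differed in their medians. Among all 5405 genes, 2.31% were members, 22% were at least 2-fold lower on OP50, 11.6% at least 2-fold higher on PY79 and 6.85% at least 2-fold lower on PY79, and the counts of a list are to be read beside these shares. Of 21 lysozyme and saposin-like genes with enough reads, lys-7 and spp-12 were members, 14 were at least 2-fold lower with age on OP50 and 13 at least 2-fold lower on PY79, and the list's median age ratio was -1.55 (log2) on OP50 and -1.90 on PY79, against -0.24 and 0.05 over all 5405 genes. Of 23 neuropeptide-like and caenacin genes, cnc-2 was the only member, with medians of -0.24 and 1.35. Among 27 transthyretin-related genes, a list drawn up after the members were seen, ttr-2, ttr-17 and ttr-25 were members, 13 were past 2-fold down on OP50 and 9 past 2-fold up on PY79, with medians of -0.94 and 0.55. On PY79 ttr-17 had only 17 and 42 reads and ttr-25 only 15 and 29. With TMM factors ttr-17 was 1.87-fold lower on OP50 and ttr-25 1.73-fold higher on PY79, under the limit.

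Cuticle and body size genes followed. col-183, a cuticle collagen gene, had 4999 and 760 reads on OP50 and 162 and 642 on PY79, 6.55-fold lower (6.07–7.08) and 4.27-fold higher (3.61–5.13). Of 50 collagen genes with enough reads 2, col-183 and col-50, met the rule, and the median age ratio of the 50 was -1.45 (log2) on OP50 and -0.89 on PY79. lon-1, a secreted regulator of body length downstream of TGF-beta signaling, had 1672 and 357 reads on OP50 and 426 and 973 on PY79, 4.66-fold lower (4.16–5.25) and 2.47-fold higher (2.204–2.78). F48E8.2, which lies next to lon-1, was also a member, with 759 and 147 reads on OP50 and 64 and 134 on PY79, and with TMM factors it was 1.92-fold higher on PY79. ajm-1, a gene of the apical junctions of epithelia, had 442 and 47 reads on OP50 and 17 and 67 on PY79, 9.20-fold lower (6.93–12.9) and 4.09-fold higher (2.48–7.75).

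Regulators of stress responses and lifespan were among the genes with at least 100 reads on each diet. No list of such regulators was made, so their share beside all genes is not known. xbp-1, the bZIP factor of the unfolded protein response of the endoplasmic reticulum, stood at 117 and 53.3 CPM on OP50 and at 78.1 and 203 CPM on PY79, 2.197-fold lower (2.07–2.34) and 2.59-fold higher (2.30–2.94). atf-7, the bZIP factor that the p38 kinase PMK-1 acts on in immunity, stood at 15.3 and 4.24 CPM on OP50 and at 50.4 and 107 CPM on PY79, 3.59-fold lower (2.95–4.46) and 2.11-fold higher (1.81–2.48). smk-1, a cofactor that DAF-16 needs in longevity, stood at 23.9 and 5.88 CPM on OP50 and at 22.5 and 50.1 CPM on PY79, 4.04-fold lower (3.42–4.83) and 2.21-fold higher (1.76–2.82). At day 4 atf-7 was 3.30-fold higher on PY79 than on OP50, xbp-1 was 1.497-fold lower, and smk-1 was 1.05-fold lower with an interval that includes 1 (0.865–1.31). At day 13 all 3 were higher on PY79. With TMM factors all 3 were under 2-fold on a diet: xbp-1 was 1.77-fold lower on OP50, and atf-7 and smk-1 were 1.80-fold and 1.89-fold higher on PY79. jmjd-1.2, a histone demethylase gene, had 1520 and 517 reads on OP50 and 78 and 175 on PY79, and pqe-1, named for protection against polyglutamine toxicity, had 1181 and 339 on OP50 and 131 and 317 on PY79.

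A further set of members make or process RNA. Of 32 genes of the RNA polymerase II machinery with enough reads, 3 were members, beside 2.31% of all genes: gtf-2F1, a subunit of TFIIF, and taf-3 and taf-11.2, subunits of TFIID. With TMM factors taf-11.2 was 1.91-fold higher on PY79, under the limit. gtf-2F1 had 771 and 222 reads on OP50 and 85 and 234 on PY79, 3.45-fold lower (2.98–4.04) and 2.96-fold higher (2.32–3.87). The list as a whole had medians of -0.26 (log2) on OP50 and -0.05 on PY79, close to all genes, with 6 genes past 2-fold down on OP50, beside 22% of all genes, and 5 past 2-fold up on PY79, beside 11.6%.

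Of 61 splicing genes with enough reads, a list made after the members had been seen, 7 were members, beside 2.31% of all genes: acin-1, ddx-23, pnn-1, prp-3, sftb-1, snrp-200 and usp-39. With TMM factors acin-1, pnn-1 and snrp-200 were under 2-fold on PY79, at 1.84-fold, 1.91-fold and 1.81-fold higher. The list held 17 genes past 2-fold down on OP50, beside 22% of all genes, and 10 past 2-fold up on PY79, beside 11.6%, with medians of -0.17 (log2) on OP50 and 0.19 on PY79. snrp-200, the helicase of the U5 particle that unwinds the spliceosome's RNAs, stood at 64.1 and 21.8 CPM on OP50 and at 108 and 229.5 CPM on PY79, 2.94-fold lower (2.68–3.23) and 2.12-fold higher (1.91–2.36). ddx-23, another spliceosome helicase, stood at 58.2 and 19.7 CPM on OP50 and at 101 and 295 CPM on PY79, 2.95-fold lower (2.69–3.26) and 2.91-fold higher (2.63–3.24). usp-39 stood at 40.1 and 7.32 CPM on OP50 and at 39.9 and 94.6 CPM on PY79, 5.45-fold lower (4.72–6.37) and 2.37-fold higher (1.996–2.83). In these 3 genes the young worms of the diets were within 2-fold of each other, and the old worms on OP50 were the lowest and the old worms on PY79 the highest.

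Other members with at least 100 reads on each diet, for which no list was made, serve RNA export, translation and protein modification. thoc-2, of the THO complex that prepares mRNA for export, had 1271 and 325 reads on OP50 and 67 and 131 on PY79. egl-45, a subunit of the translation initiation factor eIF3, had 893 and 220 on OP50 and 103 and 195 on PY79. riok-2, a kinase of ribosome assembly, had 1685 and 760 on OP50 and 214 and 482 on PY79. In each of these the fold change on PY79 lay between 2.04 and 2.43. znf-598, a ubiquitin ligase for collided ribosomes, was 2.65-fold lower (2.35–3.01) and 2.23-fold higher (1.82–2.77), and uba-2, of the enzyme that activates SUMO, was 6.63-fold lower with 777 and 116 reads on OP50 and 2.05-fold higher with 37 and 71 on PY79. With TMM factors all 5 of these genes fell short of 2-fold on a diet, riok-2 on OP50 at 1.78-fold lower and the others on PY79, at 1.79-fold higher for thoc-2, 1.74-fold for egl-45, 1.91-fold for znf-598 and 1.75-fold for uba-2. None of 81 ribosomal protein genes with enough reads was a member.

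The members include genes of meiosis and of cell division, for which no list was made beyond the germline markers. htp-3, a chromosome axis gene of meiosis and the only member among 10 germline markers, had 819 and 359 reads on OP50 and 115 and 251 on PY79, 2.27-fold lower (2.01–2.58) and 2.35-fold higher (1.89–2.97), and with TMM factors it was 1.83-fold lower on OP50. The summed level of those 10 markers was 695 and 645 CPM on OP50 and 469 and 506 CPM on PY79, and none of the 10 was at 0. Their median age ratio was -0.11 (log2) on OP50 and 0.09 on PY79. The TMM shifts of 0.31 on OP50 and -0.23 on PY79 are larger than these medians, so the direction of the markers depends on the scaling. mix-1, a condensin subunit, had 364 and 176 reads on OP50 and 46 and 108 on PY79, under the limit on OP50 with TMM factors at 1.66-fold lower, and sas-7, a gene of centriole duplication, had 640 and 173 on OP50 and 67 and 165 on PY79. mix-1 overlaps M106.8 on the other strand, which had 606 and 363 reads on OP50 and 34 and 38 on PY79, and a count that ignores strand could not tell these genes apart.

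No member was found among the heat shock (13 genes with enough reads), vitellogenin (6), eggshell and oocyte (18), C-type lectin (24), detoxification (13), histone (20) or major sperm protein (13) genes. Nor was any among the markers of intestine (7), body muscle (10), pharynx (2), hypodermis (2), neurons (5) and sperm (8). Since 2.31% of all genes were members, lists this short would be likely to hold few or no members, and nothing is read from their absence. Summed marker levels of the tissues moved in other ways than the members: those of the intestine were 5438 and 4571 CPM on OP50 and 4903 and 1765 CPM on PY79, those of body muscle 1405 and 250 CPM on OP50 and 516 and 255 CPM on PY79, and those of neurons 50.2 and 51.0 CPM on OP50 and 50.6 and 54.6 CPM on PY79. A sum gives most weight to the most abundant markers. The median age ratio of the 7 intestine markers with enough reads was -1.35 (log2) on OP50 and -1.45 on PY79. It was -2.35 and -1.10 for body muscle and 0.56 and 0.17 for neurons, against -0.24 and 0.05 over all 5405 genes. The hypodermis sum was 871 and 528 CPM on OP50 and 799 and 730 CPM on PY79, the pharynx sum 12.6 and 7.56 CPM on OP50 and 14.9 and 11.6 CPM on PY79, and the sperm sum 56.2 and 659 CPM on OP50 and 39.1 and 438 CPM on PY79. Among defining markers, bli-1, dpy-7, nhr-25 and wrt-2 of the hypodermis, myo-1 and ceh-22 of the pharynx, unc-13 and unc-17 of neurons, pept-1 of the intestine and gsp-3 of sperm were at 0 in at least 1 library, while no body muscle or germline marker was. The part of these tissues in the members' levels was not tested.

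**Figure D3:**
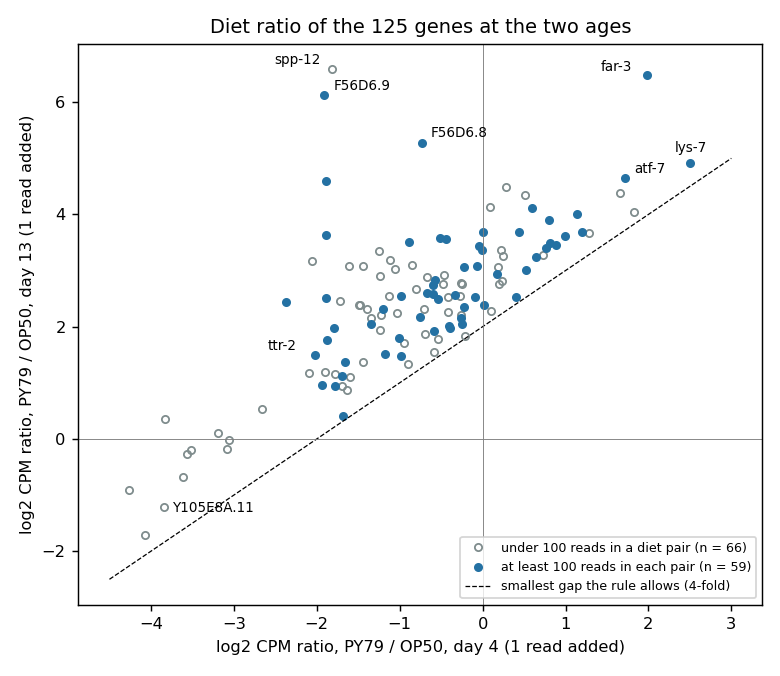
Ratio of PY79 to OP50 CPM (log2, 1 read added) of the 125 genes at day 4 (x axis) and day 13 (y axis). Filled points are the 59 genes with at least 100 reads on each diet, open points the other 66, and the dashed line is the 4-fold gap that the rule imposes; most points lie left of 0 at day 4 and above 0 at day 13.

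Set side by side by diet, the 125 genes were mostly lower on PY79 in young worms and higher on PY79 in old ones. At day 4, 52 of the 125 (41.6%) were at least 2-fold lower on PY79, against 19.8% of the 5405 genes, and 8 (6.40%) at least 2-fold higher, against 41.8%. The other 65 lay within 2-fold. Of the 59 genes with at least 100 reads on each diet, 17 were at least 2-fold lower and 37 within 2-fold. At day 13, 109 (87.2%) were at least 2-fold higher on PY79, against 55.3% of all genes, and 2, B0272.3 and Y105E8A.11, at least 2-fold lower, against 12%. The rule makes the day 13 ratio at least 4-fold above the day 4 ratio in every member, so nothing is read from these shares. Both conditions together, lower at day 4 and higher at day 13, held for 36 of the members (28.8%) and for 2% of all genes. With TMM factors, 61 were at least 2-fold lower at day 4 and 93 at least 2-fold higher at day 13, and all diet ratios moved by -0.28 (log2) at day 4 and by -0.82 at day 13.

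The 8 genes at least 2-fold higher on PY79 at day 4 were lys-7, far-3, atf-7, dnj-17, swm-1, valv-1, F54D8.6 and F34H10.3, and all 8 were higher at day 13 as well. Of these, valv-1 had only 16 and 7 reads on OP50 and 6 and 15 on PY79. F34H10.3 had only 14 and 6 on OP50 and 8 and 17 on PY79. For both genes the intervals of the age ratios included 1, as did the day 4 diet interval of valv-1 (0.712–5.97). With TMM factors 6 genes were at least 2-fold higher at day 4, while dnj-17 was 1.90-fold and F54D8.6 1.82-fold higher. Old worms on PY79 had the highest level of the 4 libraries in 93 of the 125 genes and young worms on OP50 in the other 32. Old worms on OP50 had the lowest level in 101 and young worms on PY79 in the other 24. The median level of the members was 11.6 and 3.22 CPM on OP50 and 5.37 and 14.99 CPM on PY79, beside 4.43 and 3.40 CPM and 7.44 and 7.83 CPM for all 5405 genes.

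What the rule did not use was the place and the size of the genes. Of the 125 genes, 121 matched the annotation, of which 120 are protein coding and 1, ZK380.t2, is a pseudogene. Chromosome III held 38 of the matched members (31.4%) and 19.9% of the genes with enough reads. As a share of the genes with enough reads, members made up 3.55% on chromosome III and 3.73% on X, and between 1.45% and 2.18% on I, II, IV and V. Chromosome X was also high in each condition alone. Of its genes, 35.2% were past 2-fold down on OP50, beside 19.5% to 24.5% on the other chromosomes. On PY79, 17.1% were past 2-fold up, beside 9.34% to 13.4%. Chromosome III was not high in either, at 20.9% and 9.34%. The part of these shares in the members' places was not tested. With at least 100 reads on each diet, chromosome III held 21 members, 5.17% of its 406 genes, beside 1.45% to 3.51% on the others. With TMM factors it held 14, or 1.31% of 1071, beside 0.69% to 1.07% on the others. The members on chromosome III include ttr-2, xbp-1, atf-7, lon-1, ddx-23 and thoc-2.

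The members' transcripts tended to be long, with no test run. The median length of the longest annotated transcript was 2136 bases in the members and 1378 bases in all genes with enough reads. Members were 1.20% of the shortest quartile of genes, then 1.36%, 2.03% and 4.45% of the longest quartile, which held 59 of them. With TMM factors the shares were 0.60%, 0.38%, 0.90% and 1.81%, and with at least 100 reads on each diet they were 1.02%, 1.59%, 3.30% and 7.31%. Longer genes as a whole had higher age ratios on PY79, with medians of -0.07, -0.03, 0.04 and 0.25 (log2) from the shortest to the longest quartile, and on OP50 of -0.31, -0.28, -0.22 and -0.18, and the part of this in the members' length was not tested. Chromosome III had the longest median transcript, 1483 bases, against 1331 to 1437 bases on the other autosomes and X, and 21 of its 38 members fell in the longest quartile of all genes.

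**Figure D4:**
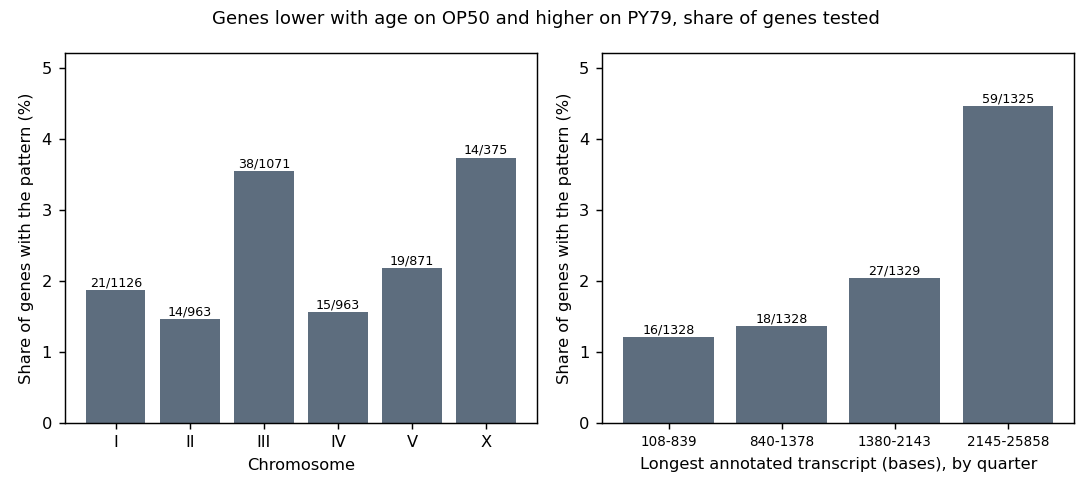
Share of the genes with at least 20 reads in each diet pair that met the rule (bars, %), by chromosome and by quartile of the longest annotated transcript; the numbers over the bars are members and genes. The share is highest on chromosomes X (14 of 375) and III (38 of 1071) and climbs to 4.45% in the longest quartile.

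Of the members, 11 lay next to another member in the annotation, in 5 runs: F56D6.9, F56D6.8 and dct-8; F15E6.4 and F15E6.10; F48E8.2 and lon-1; Y75B8A.7 and Y75B8A.8; and sut-2 and Y61A9LA.3. Overlaps with other genes of the annotation were found for 45 members, 19 with a gene on their own strand and 35 with one on the other. Among genes named above, far-3 overlaps far-5, which had 7 and 2 reads on OP50 and 0 and 4 on PY79, and gtf-2F1 overlaps Y52E8A.3, which had 1 and 4 on OP50 and 0 on PY79, few beside the members' own. Other partners held more. nex-2, on the strand opposite to sas-7, had 99 and 69 reads on OP50 and 32 and 73 on PY79, the same directions as sas-7 with 640 and 173 on OP50 and 67 and 165 on PY79. T03F6.3, opposite to dnj-17, had 114 and 97 on OP50 and 61 and 49 on PY79, and F48E8.3, on the same strand as F48E8.2, had 70 and 106 on OP50 and 17 and 19 on PY79. Whether reads of these partners were counted for the members was not tested. Where a member had other transcripts with enough reads, 66 of 76 such transcripts, from 39 members, met the rule as well, and 73 of the 76 had the same directions. Transcripts of a gene may share reads, so these are not separate observations.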

How the data were processed

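Whole-worm poly(A) RNA of N2 worms on OP50 or PY79, at day 4 or day 13, was sequenced as 3′ end-enriched libraries (3SEQ), with 1 library for each of the 4 groups. Raw counts of reads for 24775 transcript lines were deposited by the authors without normalization, and the submitters' processing notes name Bowtie 0.12.7. The genome build, annotation and counting tool, and whether strand was used, were not given in the sources used here; positions are therefore left out. The 2 lines that name no gene held 0 reads.

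For each gene the transcript with most reads over the 4 libraries was used, scaled to CPM by the column total of these lines, after adding 1 read for ratios. Intervals are exact (Clopper-Pearson on the split of reads, 95%) and cover counting error only. With 3 reads as the floor, a count of 0 allows up to 0.105 CPM in each OP50 library and 0.620 and 0.671 CPM in the PY79 libraries at days 4 and 13. Names, biotypes, neighbours and transcript lengths were taken from Ensembl release 115, which held 16760 of the 17096 genes. TMM factors came from edgeR 4.0.16 in R 4.3.3, on genes with at least 10 reads in a library, and median-of-ratios size factors were computed in R. Selection and intervals were computed in Python 3.11.15 with SciPy 1.17.1 and tested on simulated data.

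Members and gene lists were chosen with earlier results of these data known, and the splicing and transthyretin-related lists after the members were seen. Genes were named if they had at least 100 reads in each diet pair, were among the 25 further members with the largest weaker age ratio, belonged to a list or lay next to another member. The genes swm-1, valv-1, F34H10.3, B0272.3 and Y105E8A.11, those of the mirror pattern, and overlapping or neighbouring genes outside the members were named after their values were seen. Alternatives for scaling, read minimum, added reads, fold limit, counting interval and summed transcripts were run.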

Additional observations from a re-analysis of the deposited data

Results flagged for a closer look

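The 125 genes were flagged for their direction, which the rule itself sets. In each, the age ratio was at most 0.5 on OP50 and at least 2 on PY79, with 1 library a group. The mirror pattern was met by 6 genes: ilys-2, C36A4.14, C41D11.9, F20B6.9, F52H2.5 and Y69A2AR.16. Of the 5405 genes, 1189 met the OP50 limit of the pattern and 629 its PY79 limit. For the mirror pattern these counts were 363 and 370. Whether 125 or 6 differ from the overlap that unrelated changes would give was not tested. The difference between the diets was not tested for either set, because the rule that chose the genes sets it and no group has a second library.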

How the results depend on the processing

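No paired analysis was possible because each group has 1 library and no test was run. The count of genes in the pattern was 125 and of those in its mirror image 6. With TMM factors they were 52 and 22, with median-of-ratios size factors 66 and 20, and with totals that leave out the 3% most highly expressed genes 61 and 32. A minimum of 100 reads gave 59 and 1, no minimum 470 and 100, 5 added reads 95 and 3, a 3-fold limit 16 and 1, counting intervals that exclude 1 gave 116 and 3, and summed transcripts 178 and 5.

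Of the members found by each setting, those at least 2-fold lower on PY79 at day 4 and at least 2-fold higher at day 13 numbered 52 and 109 with the column totals, 34 and 40 with TMM, 50 and 50 with size factors, 23 and 54 without the most expressed genes, 17 and 56 with 100 reads, 202 and 393 with no minimum, 30 and 85 with 5 added reads and 81 and 147 with summed transcripts. Under the 3-fold limit, 7 members were at least 3-fold lower on PY79 at day 4 and 15 at least 3-fold higher at day 13.

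The share of reads held by the members of each setting, in the order OP50 day 4, OP50 day 13, PY79 day 4 and PY79 day 13, was 0.759%, 0.152%, 0.302% and 2.31% with TMM, 0.780%, 0.157%, 0.319% and 2.35% with size factors, 0.753%, 0.146%, 0.312% and 2.33% without the most expressed genes, and 1.25%, 0.190%, 0.542% and 2.84% with 100 reads. It was 1.36%, 0.223%, 0.564% and 2.92% with no minimum, 1.31%, 0.210%, 0.562% and 2.90% with 0.5 reads added, 1.27%, 0.199%, 0.545% and 2.86% with 5 reads added, 0.592%, 0.107%, 0.233% and 2.13% at 3-fold, 1.30%, 0.206%, 0.557% and 2.89% with the counting interval, and 0.778%, 0.147%, 0.347% and 1.52% with summed transcripts. Each of the 125 genes stayed lower with age on OP50 and higher on PY79 under all 3 other scalings, which the rule made certain. These scalings moved all age ratios by 0.31 to 0.47 on OP50 and by -0.12 to -0.23 on PY79 (log2), less than the 2-fold limits. Of the 178 genes found with summed transcripts, 120 were among the 125. Of 59 genes with at least 100 reads on each diet, 21 were past 2-fold on both diets with TMM. The PY79 libraries limit the depth, and the spread between worm populations is unknown with 1 library a group.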
